A study of Homo sapiens with 20 samples.

Results

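The 48 genes described here encode the proteins that mark, license and fire DNA replication origins and that build and protect the replication fork. They were chosen by name from a list of replication licensing, polymerase and fork genes, and each was read from an array feature annotated to that single gene. All 48 listed genes were found, among 18417 genes measured. They fall by role into origin recognition (6 genes), licensing factors (3), the MCM2 to MCM7 helicase (6), helicase activation (8), polymerase alpha-primase (4), polymerases delta and epsilon (5), clamp and clamp loader (6), replication protein A (3), Okazaki fragment joining (2), and fork protection and control (5).

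Replication origins are bound by the origin recognition complex, which recruits CDC6 and CDT1 to load the MCM helicase onto DNA in G1 phase. In S phase the kinase CDC7 with its partner DBF4, together with CDC45 and the GINS proteins, turns the loaded helicase into an active fork, and polymerases alpha, delta and epsilon copy the strands. Many of these genes are transcribed mainly around the G1/S transition under E2F transcription factors. In epithelial cells p53 can block that step through CDKN1A, whose product p21 inhibits cyclin-dependent kinases.

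The cells were B5/589, an immortalised line of human mammary epithelium with a p53 transgene that doxycycline switches on. Uninduced cells (0 ng) were collected at 24 h alone, and cells induced with 3 ng or 5 ng of doxycycline both at 12 h and at 24 h, which makes 5 groups of 4 arrays. All of them carry the transgene and grew in medium with serum and epidermal growth factor. The doses carry no volume, and since separate cultures are not stated for the arrays of a group, the spread behind each p-value may be technical. The line is a single immortalised line and the p53 comes from a transgene, which limits it as a model of the endogenous response.

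Values are log2 signals as deposited, and a difference of 1 is 2-fold. Array medians ranged from 4.54 to 5.54, and results after quantile normalisation, which gives all arrays the same distribution of values, are set beside the main ones where they differ. Replicate 2 of 3 ng at 12 h, the brightest array, had a mean of 8.64 over the 48 genes, against 7.64 to 8.07 on the other 3 arrays of that group. It stood apart after quantile normalisation too, at 8.23 against 7.83 to 7.93. Replicate 2 of 5 ng at 12 h had a mean of 7.95, against 7.26 to 7.63 on the others. CDKN1A averaged 10.05 at 5 ng and 8.62 at 0 ng for 24 h (difference 1.44 ± 0.14, SE, limma adjusted p = 1.01e-07). The basal mammary markers KRT5, KRT14, ITGA6 and EGFR had group means of 9.18 to 12.4, and the luminal or general epithelial markers KRT8, KRT18, KRT19, CDH1 and EPCAM had means of 5.32 to 12.95. The fibroblast, endothelial, blood and adipocyte markers lay between -1.12 and 6.48. No call of detection above background was used. The group means of POLE2, CDC7, ORC1 and DBF4 at 5 ng for 24 h, and of POLE2 and DBF4 at 3 ng, lay under 4.25, the highest group mean of the 3 endothelial markers, a level chosen after the values were seen. These 4 genes were not shown to be above background there, so their folds are also given as bounds with that level in place of their own. The highest group means of the adipocyte, fibroblast and blood markers were higher, at 4.93, 6.38 and 6.48. At 5 ng for 24 h CLSPN (4.42), MCM10 (4.59) and ORC6 (4.73) lay under 4.93. DTL (5.71) and CDC6 (6.17), among others, lay under 6.38. The bounds hold only if background lies no higher than 4.25, and the folds of these other genes may be limited too.

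The promoters of the 4 genes with the largest measured falls at 5 ng for 24 h, and of ORC4 and PCNA, which changed least among the members in the promoter table, are shown so that sequence can be set beside response. They run from 250 bases before to 50 bases after the annotated start, 5′ to 3′ on the gene's strand, and come from RefSeq (GRCh38.p14). Capitals mark matches on either strand to the E2F letters TTTGGCGC, TTTCCCGC, TTTGCCGC, TTTCGCGC or TTTGGCGG and to the CCAAT box. DTL (chr1:212035498-212035797, plus strand), CLSPN (chr1:35769929-35770228, minus strand), POLE2 (chr14:49688165-49688464, minus strand) and CDC6 (chr17:40287629-40287928, plus strand) come first, then ORC4 (chr2:148021502-148021801, minus strand) and PCNA (chr20:5126573-5126872, minus strand).
DTL: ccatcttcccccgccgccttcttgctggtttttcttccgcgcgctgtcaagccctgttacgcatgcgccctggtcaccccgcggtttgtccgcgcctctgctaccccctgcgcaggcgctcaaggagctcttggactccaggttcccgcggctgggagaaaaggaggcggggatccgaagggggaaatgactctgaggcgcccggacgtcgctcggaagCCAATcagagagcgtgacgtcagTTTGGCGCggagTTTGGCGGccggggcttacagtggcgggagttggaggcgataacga
CLSPN: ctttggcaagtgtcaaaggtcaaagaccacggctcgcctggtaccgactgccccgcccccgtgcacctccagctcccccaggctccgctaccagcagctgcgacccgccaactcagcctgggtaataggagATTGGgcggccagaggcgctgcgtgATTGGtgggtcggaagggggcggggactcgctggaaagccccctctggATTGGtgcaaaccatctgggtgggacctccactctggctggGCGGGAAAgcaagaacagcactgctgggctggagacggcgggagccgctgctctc
POLE2: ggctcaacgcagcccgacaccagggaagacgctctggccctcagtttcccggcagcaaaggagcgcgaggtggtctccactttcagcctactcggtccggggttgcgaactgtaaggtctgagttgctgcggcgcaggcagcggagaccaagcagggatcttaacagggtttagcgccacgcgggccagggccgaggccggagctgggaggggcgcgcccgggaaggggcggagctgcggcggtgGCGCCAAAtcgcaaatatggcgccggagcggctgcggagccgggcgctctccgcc
CDC6: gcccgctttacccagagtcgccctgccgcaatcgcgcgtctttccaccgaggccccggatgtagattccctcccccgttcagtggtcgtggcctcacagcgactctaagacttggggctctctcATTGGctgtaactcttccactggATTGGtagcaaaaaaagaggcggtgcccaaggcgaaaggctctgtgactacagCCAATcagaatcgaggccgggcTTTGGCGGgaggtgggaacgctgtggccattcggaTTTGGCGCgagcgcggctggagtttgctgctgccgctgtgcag
ORC4: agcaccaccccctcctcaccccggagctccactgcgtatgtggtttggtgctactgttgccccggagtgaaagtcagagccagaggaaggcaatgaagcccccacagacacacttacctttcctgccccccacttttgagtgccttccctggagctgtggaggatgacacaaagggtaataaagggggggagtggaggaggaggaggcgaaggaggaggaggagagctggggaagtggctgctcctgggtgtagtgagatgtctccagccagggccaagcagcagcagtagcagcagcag
PCNA: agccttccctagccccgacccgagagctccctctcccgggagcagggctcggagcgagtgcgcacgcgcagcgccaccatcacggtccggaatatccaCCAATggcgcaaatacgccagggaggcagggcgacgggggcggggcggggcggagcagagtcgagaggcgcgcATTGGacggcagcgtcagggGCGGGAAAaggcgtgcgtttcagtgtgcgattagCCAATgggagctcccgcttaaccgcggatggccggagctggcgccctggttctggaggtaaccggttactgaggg

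Positions count the annotated start as 1, with no 0. E2F matches began at -8 and 5 in DTL, at -5 in CLSPN and in POLE2, at -28 and 8 in CDC6, and at -59 in PCNA. The ORC4 window, and the other window listed for that gene, held neither an E2F nor a CCAAT match. Over the 42 members in the table, 25 (59.5%) had E2F letters in at least 1 window, against 6.5% of the 14237 tested genes in the table. Counted by window, 25 of 52 member windows (48.1%) held them, against 3.9% of all 35116 windows. By role the letters were found in 4 of 4 MCM helicase genes, 3 of 3 licensing factors and 6 of 7 helicase activation genes in the table. Fork protection and control had 3 of 5, clamp and clamp loader 3 of 6, and Okazaki fragment joining 1 of 2. Polymerase alpha-primase had 2 of 4, as did polymerases delta and epsilon. Origin recognition had 1 of 6 and replication protein A 0 of 1. By the same count per gene, CCAAT was present for 25 of 42 members (59.5%, against 42.2% of the tested genes in the table), the GC box GGGCGG for 32 of 42 (76.2%, against 65.9%), and the cell cycle homology letters TTTGAA for DBF4 alone (2.4%, against 15.7%). Of all windows, 34.6% held CCAAT, 45.0% the GC box and 15.2% TTTGAA. Members with E2F letters had a median log2 change of -3.0 at 5 ng against 0 ng for 24 h, and the 17 without had -2.46. For CCAAT the medians were -2.99 with and -2.675 without. For the GC box they ran the other way, at -2.49 with and -3.31 without. Whether any of these medians differ was not tested. These are letter matches in 1 window length, and binding was not measured on these arrays.

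Replication genes fell almost as a whole after 24 h of p53 induction. At 5 ng, 46 of 48 were lower than at 0 ng and 0 were higher (limma, Benjamini-Hochberg adjusted p under 0.05 over all 18417 genes), where 23.5% of all genes were lower and 4.52% higher. The median log2 change of the members was -2.68, against -0.24 over all genes. At 3 ng, 46 of 48 were again lower and 0 higher (23% and 1.5% of all genes), with a median of -2.02 against -0.24. Changes of at least 2-fold were called for 43 members at 5 ng (6.59% of all genes) and 41 at 3 ng (4.6%), and 18 members fell at least 8-fold as measured at 5 ng, as did 157 of all 18417 genes. The 4 arrays of 5 ng lay below the 4 of 0 ng without overlap for 47 members, where 27% of all genes did so, and those of 3 ng did for 46 members (27.9%). Quantile normalisation moved the median of all genes from -0.24 to 0.07 at 5 ng and to 0.08 at 3 ng. It left 46 members lower at both doses (17.2% and 12.5% of all genes) and made 1, ORC4, higher (20.6% and 15.4%), with member medians of -2.29 and -1.57. Over all genes it turned 833 higher and 4333 lower calls at 5 ng into 3786 and 3172, and 276 and 4228 at 3 ng into 2834 and 2308. Both comparisons use the same 0 ng arrays. In bulk RNA, fewer cells in S phase and less RNA per cell cannot be told apart.

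**Figure D1:**
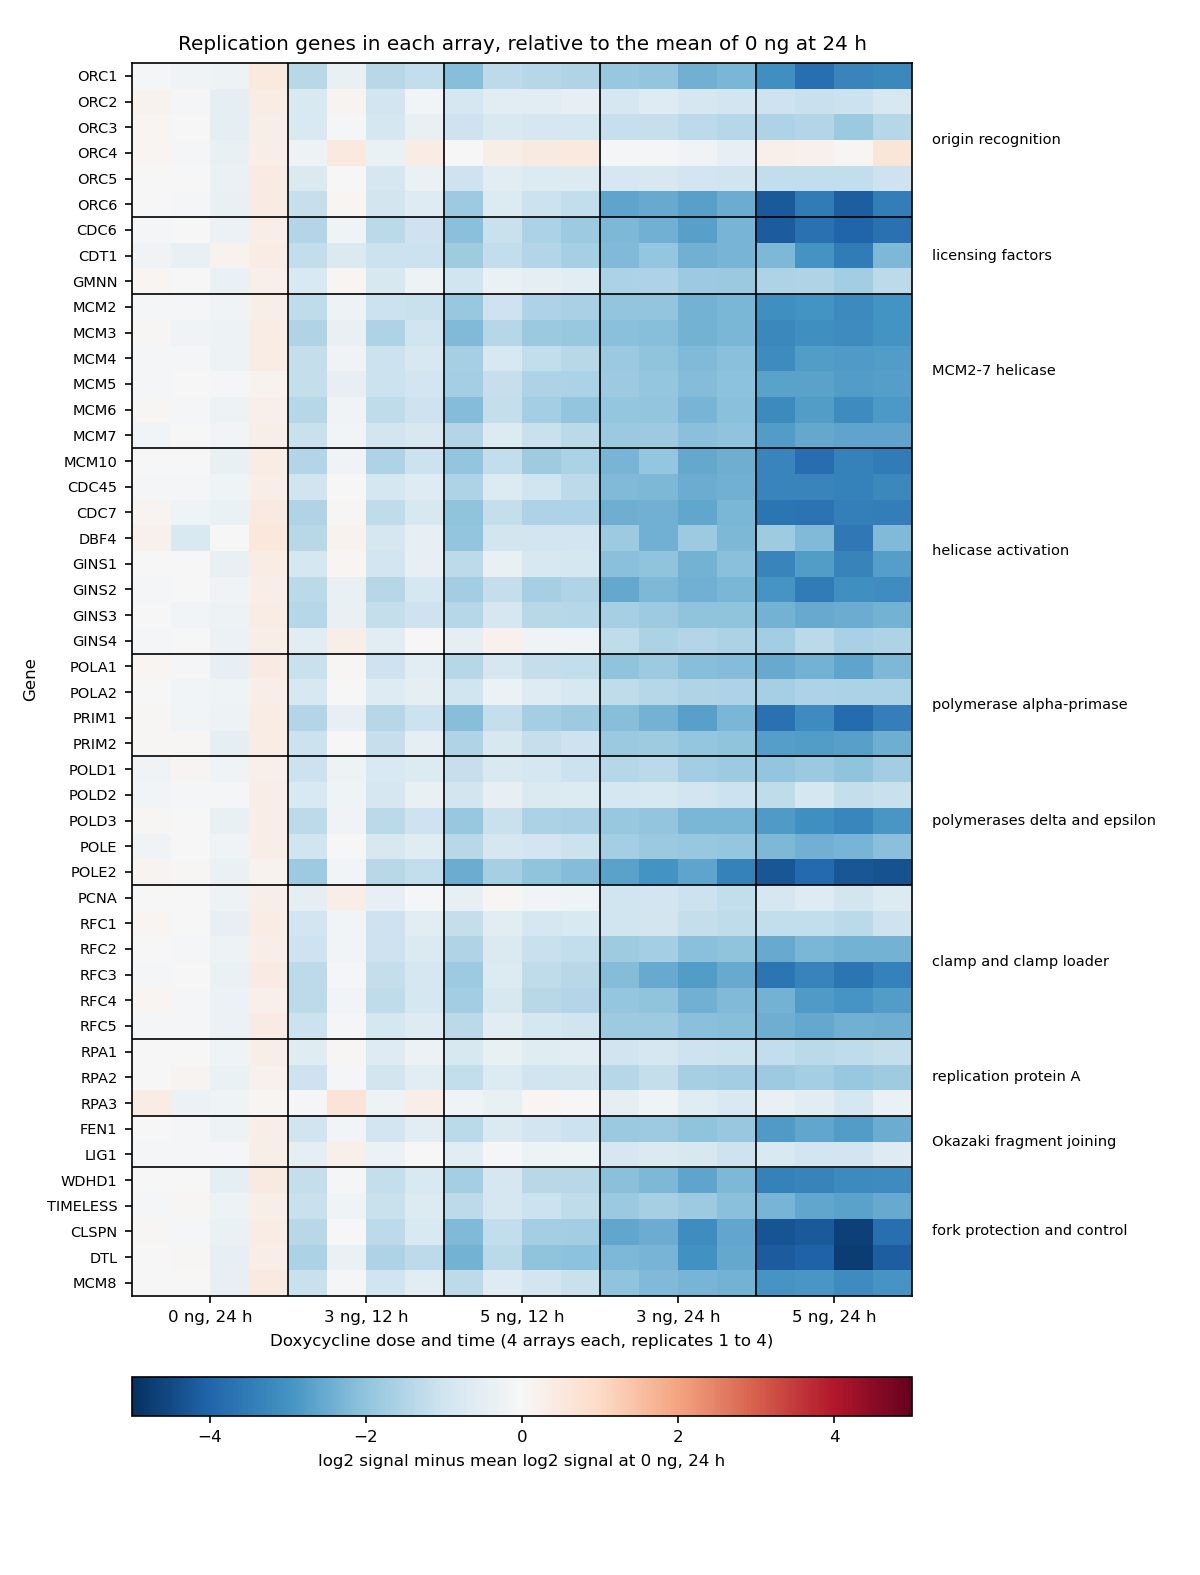
Log2 signal of each of the 48 replication genes (rows, by role) on each of the 20 arrays (columns, by dose and time), shown as the difference from the gene's mean over the 4 arrays of 0 ng at 24 h. Nearly all rows deepen toward lower values at 5 ng for 24 h, while the ORC4 and RPA3 rows change least.

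The origin recognition complex was split. ORC6, its smallest and least tightly bound subunit, had log2 signals of 8.55, 8.50, 8.19 and 8.94 at 0 ng, 5.92, 6.04, 5.83 and 6.06 at 3 ng, and 4.35, 5.06, 4.43 and 5.09 at 5 ng for 24 h. The 3 doses did not overlap. It fell by 3.81 ± 0.26 (SE, n = 4 each) at 5 ng, which is 14.1-fold (limma adjusted p = 3.05e-10), and by 2.58 ± 0.26 at 3 ng (adjusted p = 2.65e-07). ORC1, an ATP-binding subunit whose level varies over the cell cycle, read 7.30, 7.19, 7.12 and 7.84 at 0 ng, 5.48, 5.40, 4.95 and 5.07 at 3 ng, and 4.28, 3.58, 4.07 and 4.15 at 5 ng. It fell by 3.34 ± 0.24 at 5 ng (limma adjusted p = 5.59e-10; at least 8.65-fold by the bound) and changed by -2.14 at 3 ng. Both of these subunits thus stepped down at each dose.

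The core subunits ORC2, ORC3 and ORC5 moved less. ORC2 read 8.27, 8.04, 7.65 and 8.48 at 0 ng, 7.28, 7.48, 7.27 and 7.17 at 3 ng, and 7.09, 7.01, 7.05 and 7.32 at 5 ng. The induced arrays lay below all 0 ng arrays but the 2 doses overlapped, with changes of -0.99 ± 0.21 at 5 ng (limma adjusted p = 0.000962) and -0.81 at 3 ng. ORC3 changed by -1.56 at 5 ng and -1.25 at 3 ng, and ORC5 by -1.19 and -0.90, all called. ORC4, another core subunit, was not called. Its signals were 9.15, 8.95, 8.68 and 9.37 at 0 ng, 8.93, 8.98, 8.88 and 8.63 at 3 ng, and 9.30, 9.24, 9.08 and 9.65 at 5 ng, and the groups at 5 ng and 0 ng overlapped. The change was 0.28 ± 0.19 at 5 ng (limma adjusted p = 0.329) and -0.18 ± 0.19 at 3 ng (adjusted p = 0.595), and after quantile normalisation ORC4 was called higher at both doses (0.64 and 0.28).

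Among the licensing factors, CDC6, the ATPase that helps load the helicase, read 10.01, 10.09, 9.80 and 10.41 at 0 ng, 7.83, 7.66, 7.35 and 7.74 at 3 ng, and 5.93, 6.35, 6.07 and 6.34 at 5 ng. The doses formed 3 separate steps. CDC6 was 14.98-fold lower at 5 ng (log2 change -3.90 ± 0.24, limma adjusted p = 6.86e-11) and 5.40-fold lower at 3 ng. CDT1, its partner in loading, read 7.59, 7.40, 7.96 and 8.17 at 0 ng, 5.56, 5.84, 5.38 and 5.46 at 3 ng, and 5.53, 4.78, 4.29 and 5.54 at 5 ng. Both induced groups lay below 0 ng, and they overlapped with each other. CDT1 changed by -2.75 ± 0.24 at 5 ng (limma adjusted p = 1.2e-08) and by -2.22 at 3 ng.

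GMNN, geminin, which holds CDT1 inactive after S phase has begun, had the smallest change of this class. Its signals were 9.19, 9.09, 8.77 and 9.34 at 0 ng, 7.53, 7.55, 7.27 and 7.25 at 3 ng, and 7.57, 7.61, 7.35 and 7.80 at 5 ng. The induced groups overlapped each other at about the same level. It fell by 1.52 ± 0.19 at 5 ng (limma adjusted p = 3.67e-06) and by 1.70 ± 0.19 at 3 ng (adjusted p = 1.36e-06).

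The 6 subunits of the MCM helicase, which unwinds DNA at the fork, moved nearly as a unit. Their log2 changes at 5 ng lay between -3.10 for MCM3 and -2.66 for MCM7, and at 3 ng between -2.22 and -1.94. MCM3 read 9.41, 9.20, 9.12 and 9.74 at 0 ng, 7.27, 7.24, 7.0 and 7.08 at 3 ng, and 6.14, 6.32, 6.22 and 6.39 at 5 ng. MCM2 read 9.46, 9.45, 9.33 and 9.81 at 0 ng, 7.53, 7.54, 7.13 and 7.23 at 3 ng, and 6.45, 6.53, 6.33 and 6.54 at 5 ng. In both genes the 3 doses were fully separated. MCM7 read 10.23, 10.31, 10.21 and 10.64 at 0 ng, 8.50, 8.54, 8.24 and 8.34 at 3 ng, and 7.56, 7.79, 7.71 and 7.71 at 5 ng, which is the same pattern. The change at 5 ng was -3.10 ± 0.22 for MCM3 (limma adjusted p = 4.79e-10), -3.05 ± 0.20 for MCM2 (adjusted p = 1.96e-10) and -2.66 ± 0.19 for MCM7 (adjusted p = 6.21e-10).

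All 8 genes of helicase activation fell, with a median of -3.10 at 5 ng. CDC7, the kinase that phosphorylates the loaded helicase, read 7.23, 6.88, 6.76 and 7.53 at 0 ng, 4.67, 4.69, 4.49 and 4.83 at 3 ng, and 3.43, 3.41, 3.68 and 3.66 at 5 ng. It was 11.7-fold lower as measured at 5 ng (-3.56 ± 0.25, limma adjusted p = 5.49e-10), or at least 7.21-fold by the bound, and 5.39-fold lower at 3 ng. MCM10, a factor needed for the helicase to start unwinding, read 8.05, 8.10, 7.69 and 8.46 at 0 ng, 5.75, 6.15, 5.51 and 5.65 at 3 ng, and 4.77, 4.28, 4.71 and 4.59 at 5 ng. Its change was -3.49 ± 0.25 at 5 ng (limma adjusted p = 6.3e-10) and -2.31 at 3 ng, with no overlap between doses in either gene.

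CDC45, a subunit of the active helicase, changed by -3.31 at 5 ng and -2.33 at 3 ng. The GINS subunits GINS1, GINS2 and GINS3 changed by -3.05, -3.15 and -2.44 at 5 ng and by -2.14, -2.37 and -1.87 at 3 ng. GINS4 had the smallest measured change in this class, with 7.98, 8.07, 7.78 and 8.41 at 0 ng, 6.80, 6.47, 6.59 and 6.48 at 3 ng, and 6.33, 6.70, 6.42 and 6.50 at 5 ng. It fell by 1.57 ± 0.19 at 5 ng (limma adjusted p = 1.8e-06) and by 1.48 ± 0.19 at 3 ng (adjusted p = 7.65e-06), and the induced groups overlapped (5 ng minus 3 ng -0.10, 95% interval -0.49 to 0.30). DBF4, the regulatory partner of CDC7, had low signals and a wide spread, and changed by -2.44 ± 0.37 at 5 ng (limma adjusted p = 2.9e-05) and by -2.08 ± 0.37 at 3 ng. By the bound its fall was at least 1.3-fold at either dose.

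**Figure D2:**
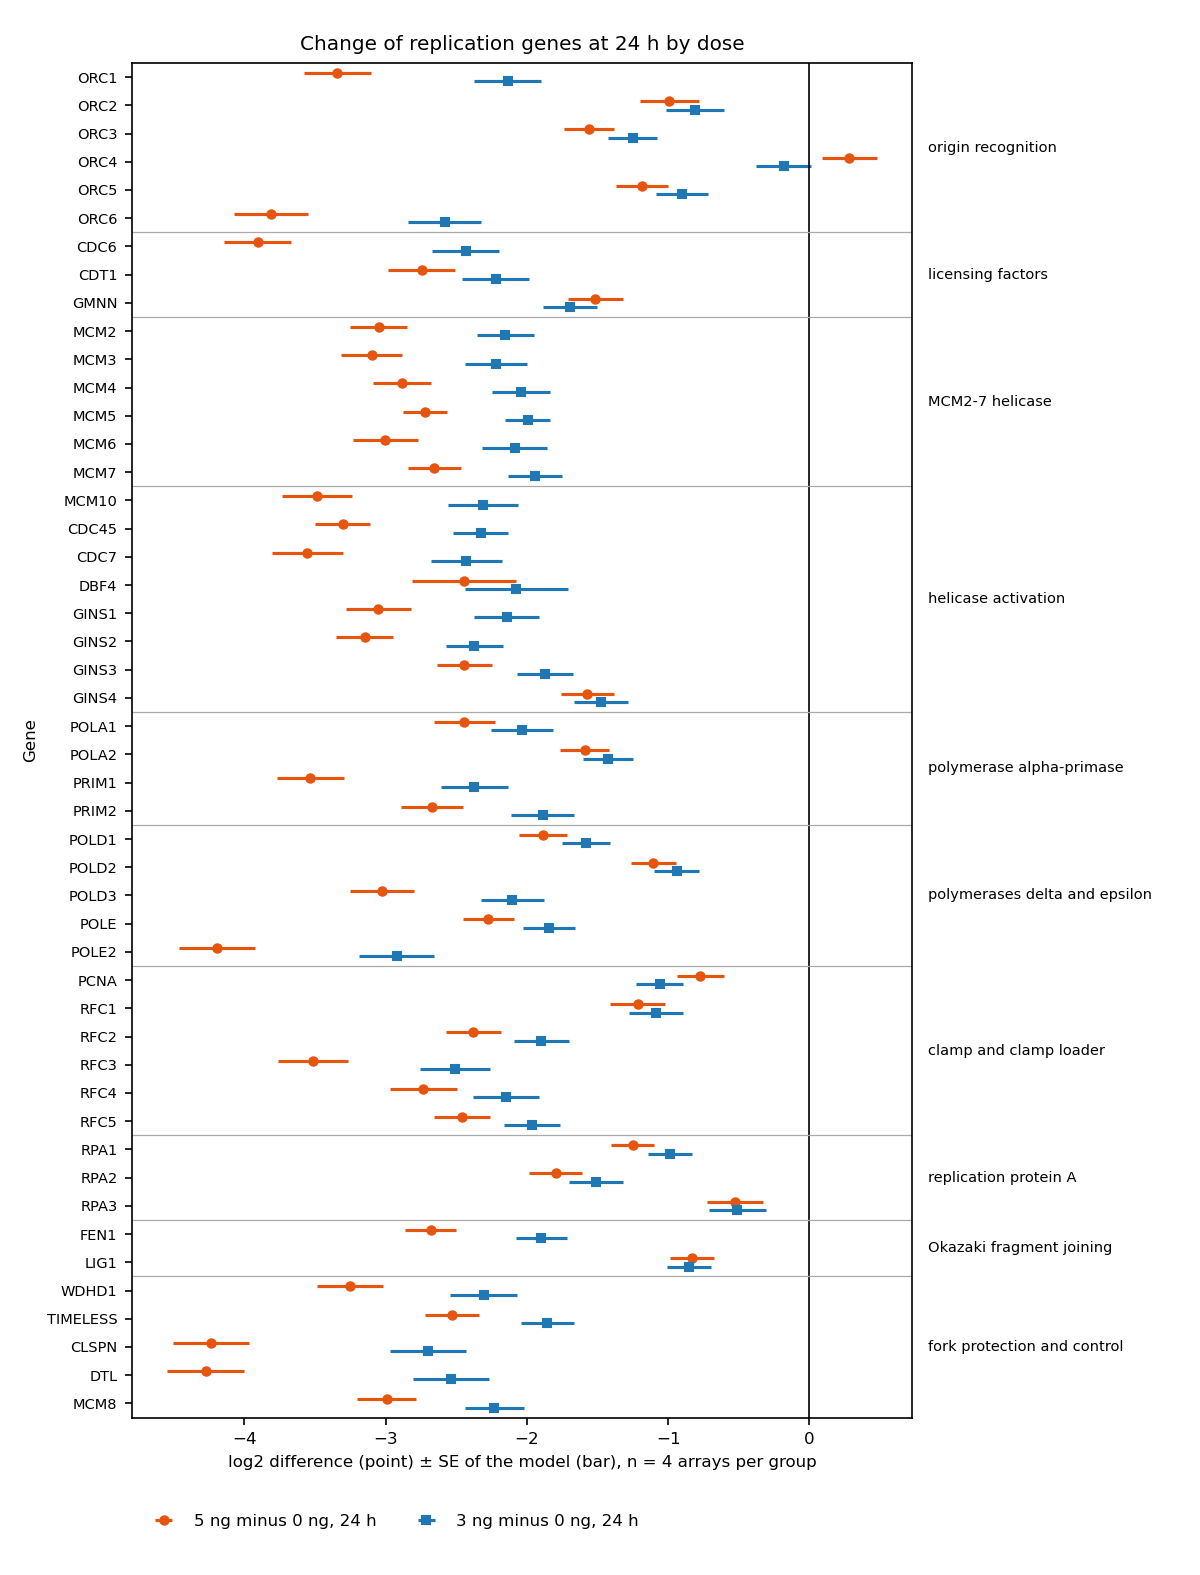
Log2 change at 24 h of each replication gene, grouped by role, for 5 ng minus 0 ng (orange circles) and 3 ng minus 0 ng (blue squares), with bars for ± 1 SE from limma. The circle lies at a lower value than the square for 44 of 48 genes, and the exceptions are ORC4, PCNA, GMNN and LIG1.

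Polymerase alpha-primase, which lays the RNA-DNA primers, fell in all 4 subunits. PRIM1, the catalytic primase subunit, read 9.16, 8.96, 8.85 and 9.46 at 0 ng, 6.96, 6.76, 6.39 and 6.83 at 3 ng, and 5.37, 5.98, 5.25 and 5.69 at 5 ng. It was 11.6-fold lower at 5 ng (-3.54 ± 0.24, limma adjusted p = 2.44e-10) and 5.18-fold lower at 3 ng. POLA2, the accessory subunit of the polymerase, read 10.49, 10.36, 10.30 and 10.85 at 0 ng, 9.24, 9.09, 9.0 and 8.96 at 3 ng, and 8.85, 8.95, 8.90 and 8.93 at 5 ng. It fell 3.02-fold at 5 ng (limma adjusted p = 5.15e-07) and 2.69-fold at 3 ng. The catalytic subunit POLA1 changed by -2.44 and the primase subunit PRIM2 by -2.67 at 5 ng.

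Of the polymerases that extend the strands, POLE2, the second subunit of polymerase epsilon, had the largest measured change. It read 7.13, 7.05, 6.66 and 7.16 at 0 ng, 4.31, 4.0, 4.37 and 3.63 at 3 ng, and 2.73, 3.13, 2.71 and 2.65 at 5 ng, so that no dose overlapped another. As measured, that is 18.3-fold lower at 5 ng (-4.20 ± 0.27, limma adjusted p = 1.23e-10) and 7.58-fold lower at 3 ng. By the bound it was at least 6.73-fold lower at either dose, so its place among the members is not fixed. POLE, the catalytic subunit of the same enzyme, changed by -2.27 at 5 ng and -1.85 at 3 ng. POLD2, an accessory subunit of polymerase delta, read 9.28, 9.36, 9.33 and 9.76 at 0 ng, 8.54, 8.62, 8.47 and 8.34 at 3 ng, and 8.18, 8.56, 8.26 and 8.31 at 5 ng, a fall of 2.15-fold at 5 ng (limma adjusted p = 2.03e-05). The accessory subunit POLD3 changed by -3.03 and the catalytic subunit POLD1 by -1.89 at 5 ng.

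PCNA, the sliding clamp that tethers polymerases to DNA, had a smaller measured change at 5 ng than each subunit of its loader. The nearest was RFC1 at -1.22. It read 10.96, 10.96, 10.72 and 11.27 at 0 ng, 9.99, 10.03, 9.90 and 9.75 at 3 ng, and 10.12, 10.32, 10.07 and 10.31 at 5 ng. Every induced array lay below the 0 ng arrays, and the 5 ng arrays lay above those of 3 ng. PCNA fell by 0.77 ± 0.17 at 5 ng (1.71-fold, limma adjusted p = 0.00129) and by 1.06 ± 0.17 at 3 ng (2.08-fold, adjusted p = 9.73e-05). As background, PCNA is also a known direct target of p53.

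RFC3, a small subunit of the clamp loader, read 9.96, 10.05, 9.70 and 10.45 at 0 ng, 7.86, 7.51, 7.23 and 7.52 at 3 ng, and 6.38, 6.69, 6.37 and 6.66 at 5 ng. The doses were separate, and the fall was 11.4-fold at 5 ng (-3.52 ± 0.25, limma adjusted p = 6.07e-10). The other small subunits RFC2, RFC4 and RFC5 changed by -2.38, -2.73 and -2.46 at 5 ng, and the large subunit RFC1 by -1.22.

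Replication protein A, which coats single-stranded DNA in replication and repair, had a median change of -1.25 over its 3 subunits at 5 ng. RPA2 read 7.72, 7.88, 7.43 and 7.98 at 0 ng, 6.31, 6.55, 6.09 and 6.01 at 3 ng, and 5.92, 6.06, 5.87 and 5.97 at 5 ng, a fall of 3.48-fold at 5 ng (limma adjusted p = 2.82e-07). RPA1, the large subunit, changed by -1.25 at 5 ng and -0.99 at 3 ng. RPA3, the smallest, was not called. It read 7.20, 6.53, 6.62 and 6.92 at 0 ng, 6.34, 6.62, 6.21 and 6.06 at 3 ng, and 6.44, 6.30, 5.95 and 6.47 at 5 ng. The 5 ng arrays lay just below those of 0 ng and the 3 ng arrays overlapped them, with a change of -0.53 ± 0.20 at 5 ng (limma adjusted p = 0.0545) and -0.51 ± 0.20 at 3 ng (adjusted p = 0.0693).

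The pair that processes Okazaki fragments diverged. FEN1, the nuclease that removes their flaps, read 9.57, 9.55, 9.35 and 9.91 at 0 ng, 7.73, 7.78, 7.59 and 7.69 at 3 ng, and 6.77, 6.98, 6.80 and 7.11 at 5 ng, in 3 separate steps. It fell 6.41-fold at 5 ng (-2.68 ± 0.18, limma adjusted p = 2.76e-10) and 3.73-fold at 3 ng. LIG1, the ligase that seals the nicks, read 8.01, 7.98, 8.01 and 8.37 at 0 ng, 7.24, 7.36, 7.31 and 7.05 at 3 ng, and 7.34, 7.13, 7.15 and 7.43 at 5 ng. Its induced groups overlapped, and it fell by 0.83 ± 0.16 at 5 ng (limma adjusted p = 0.000377) and by 0.85 ± 0.16 at 3 ng (adjusted p = 0.00049).

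Genes of fork protection and control held the largest measured falls. DTL, the adaptor that directs CDT1 to degradation at PCNA-loaded DNA, read 10.02, 10.03, 9.58 and 10.30 at 0 ng, 7.74, 7.64, 6.95 and 7.44 at 3 ng, and 5.81, 5.95, 5.22 and 5.85 at 5 ng. It was 19.4-fold lower at 5 ng (SE 0.27 on the log2 scale, limma adjusted p = 1.12e-10) and 5.82-fold lower at 3 ng. CLSPN, claspin, which carries the checkpoint signal from ATR to CHK1 at the fork, read 8.72, 8.56, 8.33 and 9.03 at 0 ng, 6.05, 6.18, 5.56 and 6.05 at 3 ng, and 4.34, 4.46, 4.01 and 4.88 at 5 ng. It was 18.9-fold lower at 5 ng (-4.24 ± 0.27, limma adjusted p = 1.29e-10). Both genes dropped in clearly separated steps.

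TIMELESS, a fork protection factor, moved least in this class and read 8.06, 8.19, 7.87 and 8.43 at 0 ng, 6.30, 6.48, 6.32 and 6.03 at 3 ng, and 5.81, 5.54, 5.46 and 5.62 at 5 ng. Its fall at 5 ng was 5.78-fold (limma adjusted p = 1.18e-09). WDHD1, which links the helicase to polymerase alpha, changed by -3.25 at 5 ng, and MCM8, a relative of the MCM helicase that acts in recombination, by -2.99.

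**Figure D3:**
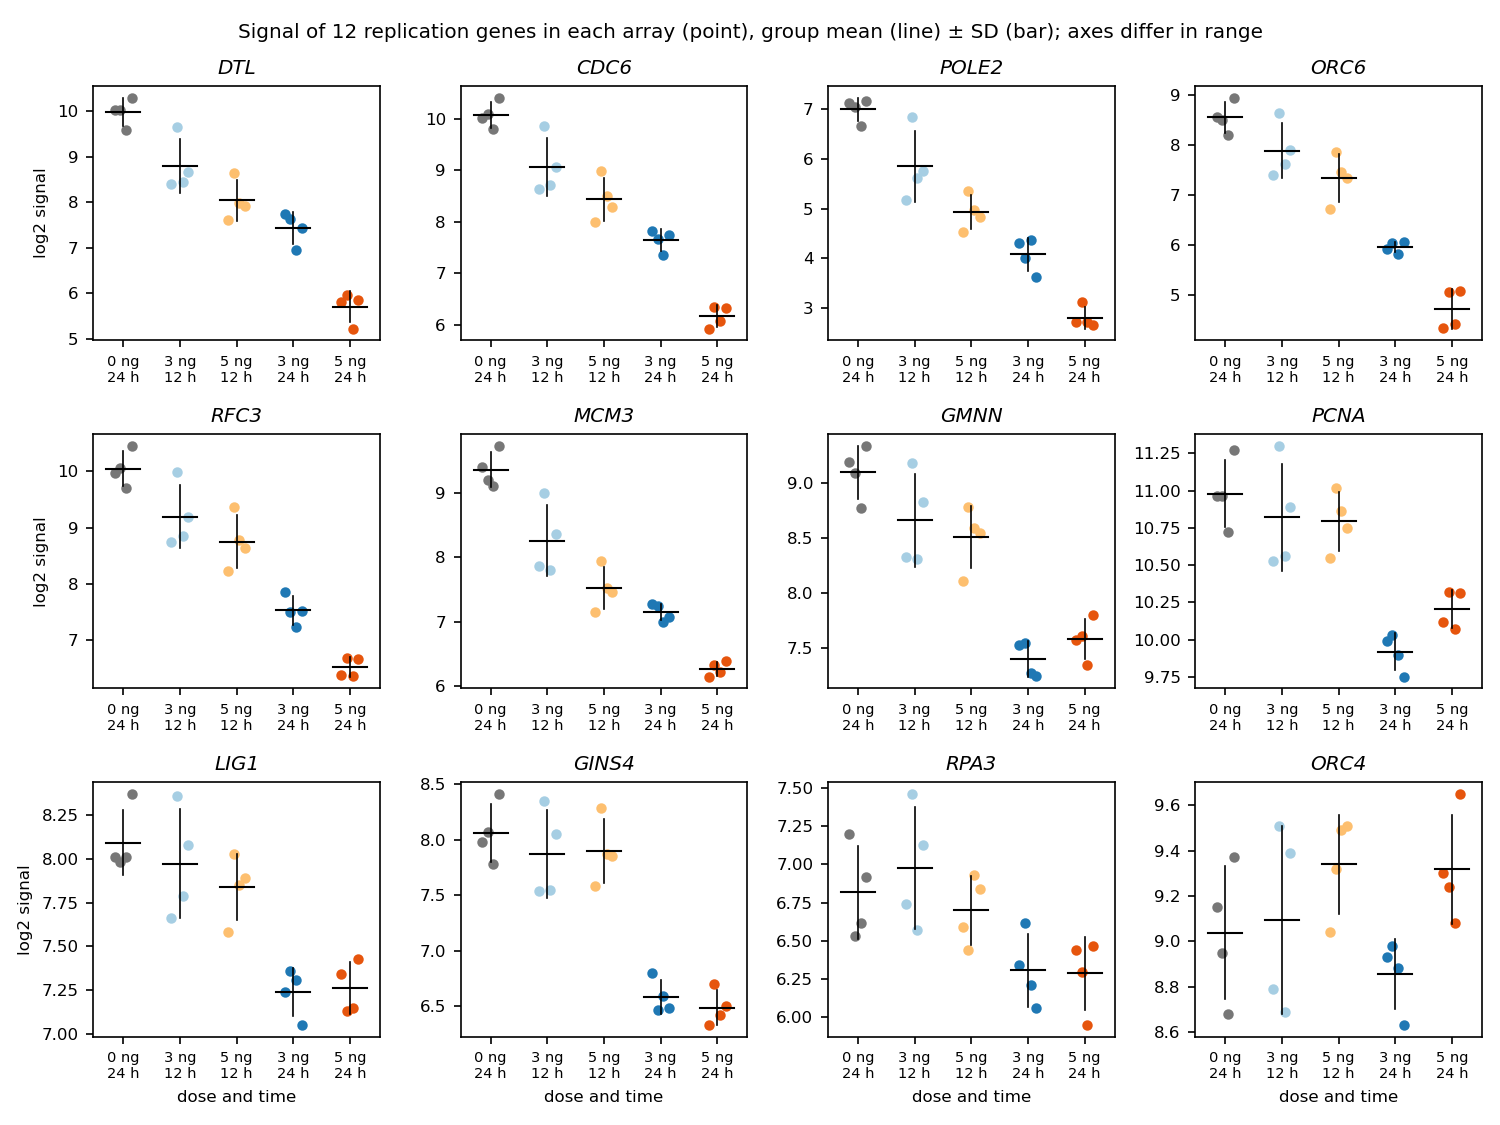
Log2 signal on each array (points) with the group mean (horizontal line) ± SD (vertical bar) for 12 replication genes in the 5 groups of 4 arrays. DTL, CDC6, POLE2, ORC6 and RFC3 lie lower at 5 ng than at 3 ng for 24 h without overlap, the arrays of GMNN, LIG1 and GINS4 overlap between those doses, and PCNA lies slightly higher at 5 ng than at 3 ng.

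Part of the set was lower at the higher dose. Between 5 ng and 3 ng at 24 h, 22 of 48 members were lower and 0 higher (limma adjusted p under 0.05), where 0.755% of all genes were lower and 1.79% higher, and 10 of them differed at least 2-fold (0.532% of all genes). The median over the members was -0.69, against -0.005 over all genes. DTL was lowest at -1.74 ± 0.27 (limma adjusted p = 0.000693), followed by CLSPN at -1.54 (adjusted p = 0.00205), CDC6 at -1.47 (adjusted p = 0.00101), POLE2 at -1.27 (adjusted p = 0.00872) and ORC6 at -1.23 (adjusted p = 0.00902). ORC1, MCM10, PRIM1, CDC7 and RFC3 differed by -1.20, -1.18, -1.16, -1.12 and -1.0. All 6 MCM helicase subunits were lower, between -0.92 and -0.71, and so were CDC45, WDHD1, POLD3, GINS1, FEN1 and GINS2.

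The other 26 members were not called between the doses. Positive values were found for ORC4 (0.46, 95% interval 0.06 to 0.87), PCNA (0.29, -0.06 to 0.64), GMNN (0.18, -0.22 to 0.58) and LIG1 (0.02, -0.30 to 0.35). For ORC4 and PCNA every 5 ng array lay above every 3 ng array, with limma adjusted p = 0.404 and 0.761, as was the case for 8.31% of all genes. The arrays of 5 ng lay below those of 3 ng without overlap for 33 members, where 2.9% of all genes did so. By role the calls covered 6 of 6 MCM helicase genes, 5 of 8 helicase activation genes, 3 of 5 fork control genes, 2 of 6 origin recognition genes, 1 of 6 clamp and loader genes and 0 of 3 replication protein A genes. Whether the roles differ was not tested.

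The number called between the doses depended on the arrays and the scaling. Quantile normalisation gave 34 lower and 1 higher (4.42% and 5.96% of all genes), the higher one being ORC4 (0.36, limma adjusted p = 0.0124). Over all genes it gave 1097 higher and 814 lower, against 329 and 139 as deposited. The count of lower members was 10 without replicate 1, 11 without replicate 2 and 11 without replicate 4 of 3 ng, and 13 without replicate 1, 11 without replicate 3 and 14 without replicate 4 of 5 ng. In every alternative run, 9 genes kept their call, namely DTL, CLSPN, CDC6, POLE2, ORC6, ORC1, MCM10, PRIM1 and CDC45. CDKN1A was higher by 0.72 between the same arrays (limma adjusted p = 0.00554).

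No replication gene separated the doses at 12 h by the test over all genes. None of the 48 members was called between 5 ng and 3 ng in limma (0 lower and 0 higher, against 0% and 0.0217% of all genes), although 23 were lower and 0 higher at an unadjusted p under 0.05 (813 and 269 of all genes). The median was -0.44 over the members and -0.12 over all genes, and 46 of the 48 values were negative. The largest differences were POLE2 at -0.93 ± 0.27 (limma adjusted p = 0.513), CLSPN at -0.87 ± 0.27 (adjusted p = 0.605) and MCM6 at -0.79 ± 0.23 (adjusted p = 0.533). CDT1 alone had groups without overlap, with 6.02, 6.55, 6.32 and 6.11 at 5 ng and 6.56, 7.04, 6.69 and 6.70 at 3 ng, where 0.402% of all genes had such groups. After quantile normalisation 9 members were called lower (0.424% of all genes) and 0 higher (2.32%), namely MCM2, MCM3, MCM5, MCM6, CDC45, GINS2, POLD3, FEN1 and CLSPN. Without replicate 2 of 5 ng, the array that stood high, the median was -0.55 and the count stayed at 0.

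**Figure D4:**
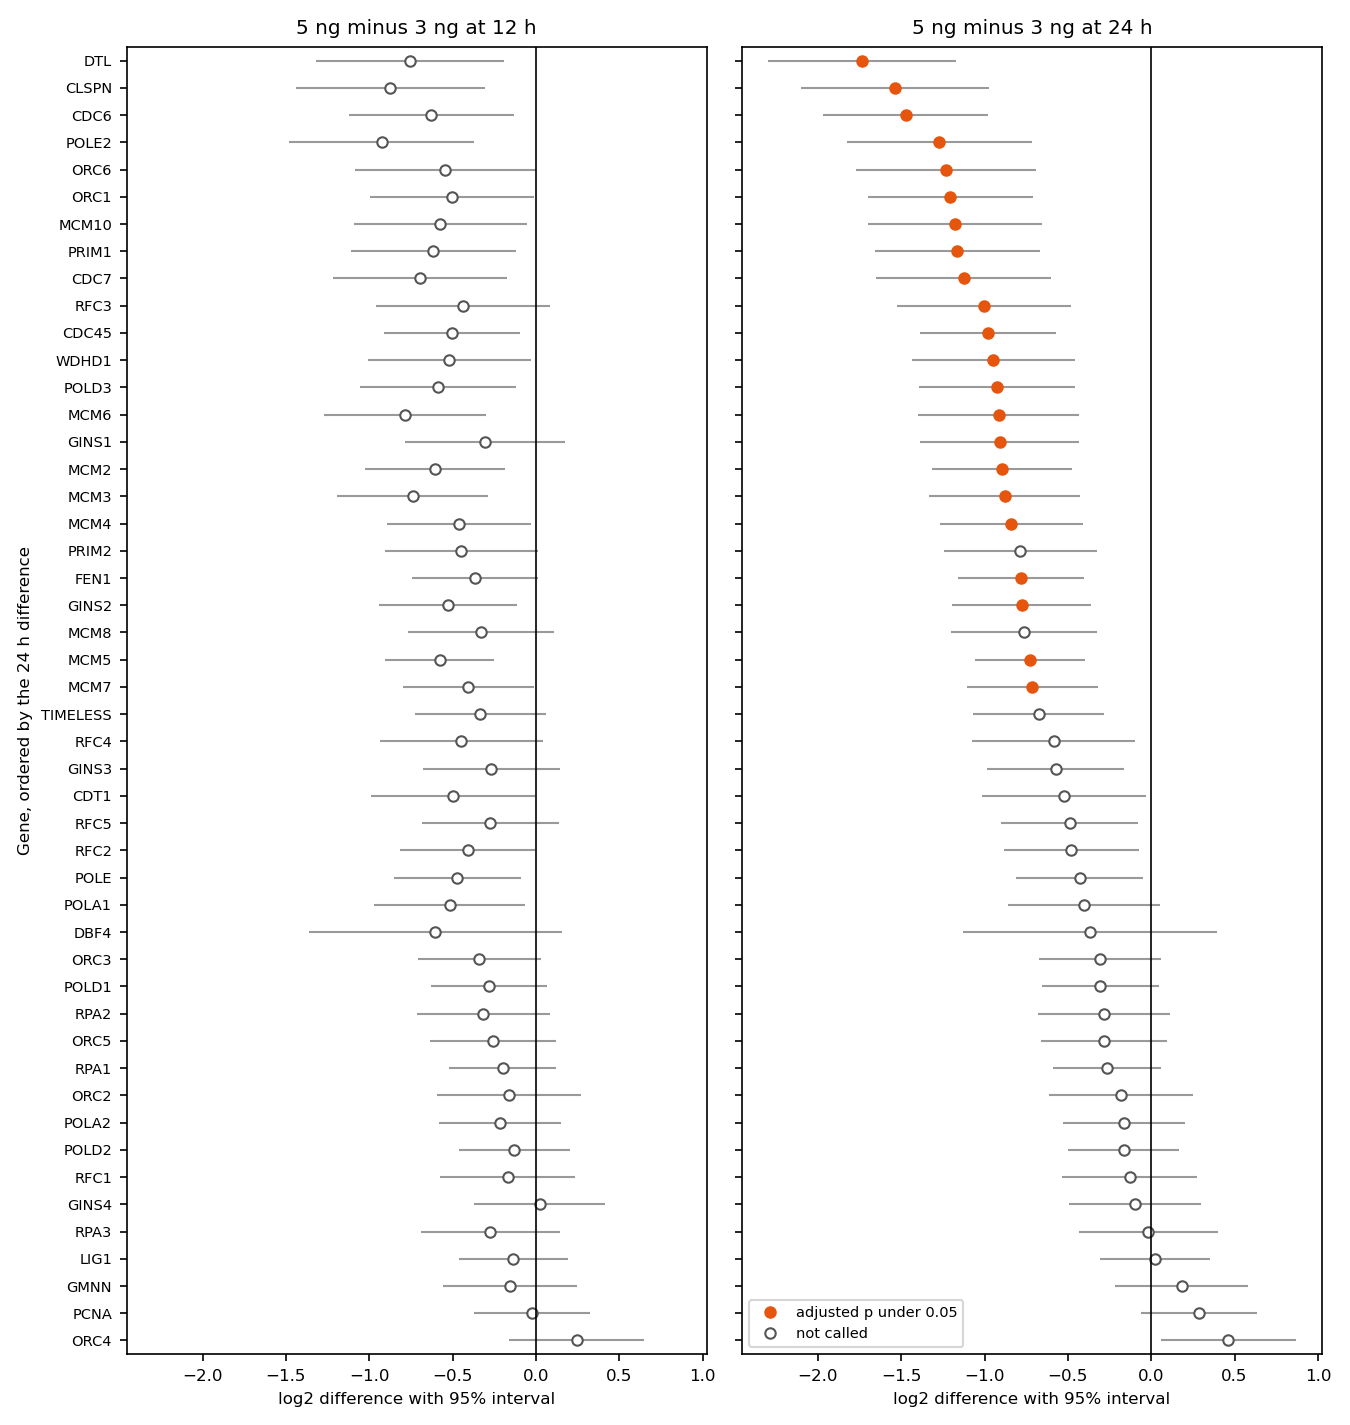
Log2 difference of 5 ng minus 3 ng for each replication gene at 12 h (left) and at 24 h (right), with bars for the 95% interval of the model and filled orange points for genes called by limma. No gene is called at 12 h and 22 are called at 24 h, all below 0.

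The dose effect was not shown to differ between the times. The interaction of dose and time called 0 members lower and 0 higher in limma (0% and 0% of all genes), with 3 members lower and 0 higher at an unadjusted p under 0.05 (92 and 299 of all genes), and again 0 and 0 after quantile normalisation (0.0652% and 0.00543%). Its lowest values were DTL at -0.98 (95% interval -1.78 to -0.18), CDC6 at -0.84 (-1.54 to -0.15) and ORC1 at -0.70 (-1.40 to -0.01). The highest were GMNN at 0.34 (-0.23 to 0.90) and PCNA at 0.31 (-0.18 to 0.80).

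Replication genes were already lower after 12 h at 5 ng than in uninduced cells, which were collected at 24 h, so that dose and time differ together. In that comparison 42 of 48 were lower and 0 higher (limma, 11.5% and 3.44% of all genes), 31 by at least 2-fold (1.55%), with a median of -1.15 against -0.18. For 40 members the groups did not overlap (16.4%), and after quantile normalisation 43 were lower and 1, ORC4, higher (14.3% and 11.5%). POLE2 read 4.53, 5.35, 4.98 and 4.83 at 5 ng for 12 h and 7.13, 7.05, 6.66 and 7.16 at 0 ng for 24 h (-2.08 ± 0.27, limma adjusted p = 1.96e-05). DTL differed by -1.95, MCM3 by -1.85, MCM6 by -1.76 and CLSPN by -1.72, all called. The 6 genes not called were ORC2 (-0.60), LIG1 (-0.26), PCNA (-0.18), GINS4 (-0.17), RPA3 (-0.12) and ORC4 (0.30). PCNA read 10.55, 11.02, 10.86 and 10.75 at 5 ng for 12 h, within the range of the 0 ng arrays but for the first. GINS4, at 7.58, 8.28, 7.87 and 7.85, likewise overlapped them.

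After 12 h at 3 ng, 20 of 48 were lower than in the same uninduced cells and 0 higher (limma, 1.24% and 1.57% of all genes), 10 by at least 2-fold (0.185%), with a median of -0.68 against -0.04. For 10 members the groups did not overlap (1.97%). DTL differed by -1.19 ± 0.27 (limma adjusted p = 0.0181), POLE2 by -1.15 ± 0.27 (adjusted p = 0.02), MCM3 by -1.11 ± 0.22 (adjusted p = 0.00566), ORC1 by -1.09 ± 0.24 (adjusted p = 0.0128) and PRIM1 by -1.09 ± 0.24 (adjusted p = 0.0129). This count rested on single arrays. It was 42 without replicate 2 of 3 ng at 12 h, the brightest array, and 4, 8 and 5 without replicates 1, 3 and 4 of that group, and 9, 8 and 4 without replicates 1, 2 and 4 of 0 ng. Quantile normalisation gave 36 lower and 1 higher, ORC4 (8.57% and 6.61% of all genes). GINS2, GINS3, MCM3 and MCM5 kept their call in every alternative run.

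Levels were lower at 24 h than at 12 h at both doses. No uninduced cells were collected at 12 h, so time in culture and longer induction cannot be told apart here. At 5 ng, 40 of 48 were lower at 24 h than at 12 h and 0 higher (limma, 3.55% and 0.424% of all genes), 33 by at least 2-fold (2.08%), with a median of -1.40 against -0.08. The groups did not overlap for 41 members (8.26%), and quantile normalisation gave 45 lower and 0 higher (7.6% and 10.8%). ORC6 differed most, with 4.35, 5.06, 4.43 and 5.09 at 24 h and 6.71, 7.86, 7.46 and 7.33 at 12 h (-2.61 ± 0.26, limma adjusted p = 4.18e-07). CLSPN followed at -2.52, DTL at -2.33, CDC6 at -2.27, RFC3 at -2.23 and GINS1 at -2.21. The 8 genes not called were ORC2, ORC4, ORC5, DBF4, POLD2, PCNA, RFC1 and RPA3, with values from -1.23 for DBF4 to -0.02 for ORC4. Without replicate 2 of 5 ng at 12 h the count was 36.

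At 3 ng, 42 of 48 were lower at 24 h than at 12 h and 0 higher (limma, 4.36% and 0.0706% of all genes), 34 by at least 2-fold (2.06%), with a median of -1.22 against -0.23. The groups did not overlap for 42 members (8.32%), and quantile normalisation gave 43 lower and 0 higher (6.06% and 9.92%). ORC6 was again lowest, at -1.92 ± 0.26 (limma adjusted p = 4.34e-05), then CLSPN at -1.85, POLE2 at -1.77, CDC45 at -1.69 and RFC3 at -1.66. GMNN read 7.53, 7.55, 7.27 and 7.25 at 24 h and 8.33, 9.18, 8.31 and 8.83 at 12 h (-1.26 ± 0.19, limma adjusted p = 0.00018). PCNA was lower by 0.90 ± 0.17 (1.87-fold, limma adjusted p = 0.00153) and GINS4 by 1.29 ± 0.19 (adjusted p = 0.000118). Between the same times at 5 ng, GINS4 differed by -1.41 and PCNA by -0.59, the second not called (adjusted p = 0.0507).

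Members of the same complex did not always share a size of change. Within polymerase epsilon the log2 changes at 5 ng for 24 h were -4.20 for POLE2 and -2.27 for POLE, and within polymerase delta POLD3, POLD1 and POLD2 ranged from -3.03 to -1.11. Within the origin recognition complex the range was from -3.81 to 0.28, and within the clamp loader from -3.52 for RFC3 to -1.22 for RFC1. The MCM helicase had the narrowest range among the classes of over 3 genes, from -3.10 to -2.66. Differences between genes were not tested, since each array feature has its own response.

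Genes of replication outside the 48 followed. Their list was drawn up with earlier results of these data known, so the counts are not independent support. Of 40 further genes measured, which cover fork, chromatin assembly, checkpoint and S-phase entry factors, 38 were lower and 1 higher at 5 ng for 24 h (limma, 23.5% and 4.52% of all genes), with a median of -1.91, and 38 lower and 0 higher at 3 ng (23% and 1.5%). CCNE2, the cyclin that drives S-phase entry, changed by -4.11, TOP2A, the topoisomerase that decatenates chromosomes, by -4.03, DSCC1, a subunit of an alternative clamp loader, by -4.02 and ASF1B, a histone chaperone, by -3.93. POLD4, the smallest subunit of polymerase delta, was higher by 0.60 ± 0.13 (limma adjusted p = 0.00173), and TOP1, the swivel topoisomerase ahead of the fork, was not called (-0.30 ± 0.15, adjusted p = 0.167). Between 5 ng and 3 ng at 24 h, 9 of the 40 were lower and 0 higher (0.755% and 1.79% of all genes), and 0 were called lower or higher at 12 h (0% and 0.0217%). After quantile normalisation 35 were lower and 1 higher at 5 ng against 0 ng (17.2% and 20.6%), and 33 and 1 at 3 ng (12.5% and 15.4%). The same scaling gave 22 lower between 5 ng and 3 ng at 24 h (4.42%) and 8 lower at 12 h (0.424%), with 0 higher at either time.

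Some markers of cell identity moved with these falls. At 5 ng against 0 ng for 24 h, 2 of 4 basal markers were higher (limma), KRT5 by 0.66 and KRT14 by 0.56, while ITGA6 (-0.22) and EGFR (-0.09) were not called. Of 5 luminal or general epithelial markers, KRT8 (0.53) and CDH1 (0.41) were higher, EPCAM was lower (-0.85), and KRT18 (0.23) and KRT19 (0.24) were not called. At 3 ng EPCAM alone of these 9 was called (-0.77). Of 3 blood markers, CD14 was lower at both doses (-1.43 and -0.71), and 0 of 6 fibroblast, 0 of 3 endothelial and 0 of 3 adipocyte markers were called. The summed signal of the blood markers ranged on the log2 scale from 6.12 to 6.87 at 0 ng, from 5.99 to 6.08 at 3 ng and from 4.73 to 5.93 at 5 ng. PTPRC, the marker of all leukocytes, was below 0 in the mean of every group. The part of these changes in the replication results was not tested.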

How the data were processed

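Labelled RNA was hybridised to Affymetrix arrays, 1 sample per array. The deposited values are log2 signals per transcript cluster and array, and the submitters' processing notes name GCOS, GCRMA, Affymetrix Power Tools and limma. The sources used here do not say how the arrays were put on one scale.

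Of 33297 clusters, 19460 carried 1 gene symbol, 1754 several, and 12083 were not listed in the platform annotation. The brightest cluster stood for a gene, which gave 18417 genes; among the members CLSPN alone had 2 clusters. No gene was removed for low signal and no array was rescaled. One linear model with a mean per group was fitted to all 20 arrays (limma 3.58.1, R 4.3.3, 15 residual degrees of freedom, moderated by eBayes). P-values were adjusted by Benjamini-Hochberg over all genes. The fit was also tested on simulated data, which had independent noise for each gene and no shift between whole arrays. That test does not bear on the scaling between arrays. A gene with adjusted p under 0.05 was called. The number of arrays limits the precision.

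Members and lists were chosen with earlier results of these data known. Per-array values were given for the largest and smallest change of each role class and for ORC1, ORC2, CDC6, CDT1, GMNN, MCM2, MCM10, PCNA, CLSPN and DTL. Correlations between same-numbered arrays of other groups, taken on deviations from the group means, had a median of 0.06 (range -0.18 to 0.50). Those between arrays of other numbers and other groups had a median of -0.02 (range -0.44 to 0.35). The ranges overlap, so whether the numbers pair the samples was not settled. List members without a named cluster were not analysed here. Promoters were in the RefSeq table for 42 of 48 members. Alternatives tried were quantile normalisation, a replicate block, a fit of just the groups compared, centring, removal of the dimmest 30% of genes, the mean of a gene's clusters, trend and robust eBayes, and each array left out.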

Additional observations from a re-analysis of the deposited data

Results flagged for a closer look

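Within each group of 4 arrays, 7 values of 240 checked stood apart from the other 3 by Dixon's criterion, where chance gives about 12. They were spread over 7 genes.

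DBF4, the CDC7 partner, was low on replicate 1 of 5 ng at 12 h, at 2.64 against 3.65 to 3.70 on the others. GINS3, a helicase subunit, was high on replicate 2 of that group, at 8.01 against 7.41 to 7.48, and that array was high for the mean of the 48 genes too. Replicate 4 of 0 ng at 24 h was high for POLD2, at 9.76 against 9.28 to 9.36, and for LIG1, at 8.37 against 7.98 to 8.01. At 5 ng for 24 h, ORC5 was high on replicate 4, at 7.58 against 7.36 to 7.38, MCM4 was low on replicate 1, at 6.66 against 6.98 to 7.02, and POLE2 was high on replicate 2, at 3.13 against 2.65 to 2.73. All 3 of these genes were called lower at 5 ng than at 0 ng for 24 h in every alternative run.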

How the results depend on the processing

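All 46 falls called at 5 ng and all 46 at 3 ng against 0 ng for 24 h held in every alternative run, except that DBF4 was not tested once the dimmest 30% of genes were removed, which left 45 of the 46 at each dose, and no called member changed sign in any comparison. Over all comparisons 258 member values were called, and their alternatives kept the call 3655 times and lost it 211 times. ORC4 accounts for the members called higher, 1 instead of 0, after quantile normalisation for both doses against 0 ng at 24 h, for 5 ng over 3 ng at 24 h, and for both 12 h groups against 0 ng; after centring each array the count was also 1 at 5 ng against 0 ng for 24 h, at 5 ng against 3 ng for 24 h and at 5 ng for 12 h against 0 ng. Lower calls after quantile normalisation comparing 5 ng with 3 ng were 34 (22 as deposited) at 24 h and 9 (0) at 12 h. For 3 ng at 12 h against 0 ng at 24 h they were 20 as deposited, 36 after quantile normalisation and 42 after centring. Over all 18417 genes, lower calls in the same runs were 229, 1579 and 3063, in that order. The members gave 34 without dim genes, 35 with trend and robust eBayes and 13 with only the groups compared. With 1 array left out, lower calls ranged from 10 to 20 for 5 ng against 3 ng at 24 h, from 4 to 42 for 3 ng at 12 h against 0 ng, from 37 to 43 for 5 ng at 12 h against 0 ng (42 with all arrays), and from 36 to 42 (40) and 38 to 43 (42) for 24 h against 12 h at 5 ng and 3 ng. With a replicate block, lower calls were 46 at each dose against 0 ng for 24 h and 25 for 5 ng against 3 ng at 24 h. They were 0 at 12 h, and 28 for 3 ng at 12 h against 0 ng. Whether the replicate numbers pair the samples is not settled. Where no all-gene count is printed beside an alternative run, here and above, the share of all genes was not set beside the members. Dim signal limits the folds of POLE2, CDC7, ORC1 and DBF4, and may limit those of other members with large falls. DBF4 has the widest standard error of the members. The cause of these shifts was not tested.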
